A study of Rattus norvegicus with 24 samples.

Results

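The 24 hypothalamus libraries of the series were divided by how much *Agrp* they held. Within each of 4 groups (sex by maternal diet) the 6 libraries were ranked by *Agrp* CPM (the count of a gene per 1000000 counts of its library), and the upper 3 libraries of every group, 12 of 24 in all, were compared with the lower 3, the other 12. They are called Agrp-rich and Agrp-poor libraries here. Within the labelled groups, the classes were chosen only by *Agrp* CPM measured in these same libraries. The *Agrp* values of the classes are therefore described without a test between them, and *Agrp* was left out of every comparison between the classes.

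The animals were *Sprague Dawley* rat pups at postnatal day 10 (PN10). The groups were female HFD-O, female CON-O, male HFD-O and male CON-O, with 6 pups each. HFD-O were offspring of dams on a high fat diet with 43% of digestible energy from lipids, and CON-O were offspring of dams on a control diet with 12%. The dams ate these diets from 3 weeks before mating, and the pups carried no genetic modification or other treatment. Each library came from the whole hypothalamus of 1 pup, cut out as a block between the mammillary bodies and the optic chiasm, and no label says which pups were littermates. The study's methods name fewer litters than there are pups here on each diet, so some pups shared a litter. P-values therefore measure the spread between pups that are not all from separate litters.

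*Agrp* encodes agouti-related peptide, which in the hypothalamus is made by neurons of the arcuate nucleus at the base of the third ventricle. The same neurons make neuropeptide Y (*Npy*), and both peptides drive feeding, agouti-related peptide by blocking melanocortin receptors. Neighbouring arcuate neurons make pro-opiomelanocortin (*Pomc*), the precursor of the melanocortin that activates those receptors and lowers food intake. In whole-tissue RNA, fewer cells of a type and less RNA per cell cannot be told apart.

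The stretches of 250 bases before the annotated transcription start of *Agrp*, *Npy* and *Pomc* are shown because the results turn on these genes. They come from RefSeq (rat build GRCr8, not the build named for the deposited counts), 5′ to 3′ on the strand of the gene. The positions are chr19:50359498-50359747, minus strand for *Agrp*, chr4:80211861-80212110, plus strand for *Npy* and chr6:32659103-32659352, plus strand for *Pomc*. Capitals mark matches to any of 5 motifs searched on both strands. The first was TATAAA, the usual TATA box. Its variant was ATAAAA, which can overlap it. A STAT site was searched as TTCNNNGAA. A FoxO site was searched as GTAAACA. A homeodomain site was searched as TAATTA.
Agrp: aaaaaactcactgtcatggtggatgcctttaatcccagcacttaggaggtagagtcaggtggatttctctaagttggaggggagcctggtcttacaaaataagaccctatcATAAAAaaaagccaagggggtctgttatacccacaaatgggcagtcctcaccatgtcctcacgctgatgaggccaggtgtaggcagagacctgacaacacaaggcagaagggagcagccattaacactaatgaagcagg
Npy: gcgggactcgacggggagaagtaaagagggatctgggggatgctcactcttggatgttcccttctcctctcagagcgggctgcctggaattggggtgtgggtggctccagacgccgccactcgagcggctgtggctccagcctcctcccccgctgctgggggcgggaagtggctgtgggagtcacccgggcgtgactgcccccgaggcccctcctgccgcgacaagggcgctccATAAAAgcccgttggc
Pomc: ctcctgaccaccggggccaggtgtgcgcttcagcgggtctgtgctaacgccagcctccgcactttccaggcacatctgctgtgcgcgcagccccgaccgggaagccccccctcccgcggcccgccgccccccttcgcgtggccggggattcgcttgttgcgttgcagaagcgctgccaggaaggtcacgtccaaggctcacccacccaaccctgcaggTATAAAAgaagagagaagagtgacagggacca
The *Pomc* stretch held the usual TATA box at 32 to 27 bases before the start, overlapped by the variant. The *Npy* stretch held the variant at 16 to 11 bases and the *Agrp* stretch at 139 to 134 bases before the start. The STAT, FoxO and homeodomain forms had no match in these 3 windows. Of 33469 rat promoters of the same length, 12.9% held the usual TATA box, 18.6% the variant, 7.67% the STAT form, 3.21% the FoxO form and 4.86% the homeodomain form. GC content was 48.0% for *Agrp*, 67.6% for *Npy* and 66.4% for *Pomc*.

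*Agrp* was a low-count gene, and within each group the libraries formed a graded series more than separate sets. In female HFD-O the Agrp-rich libraries held 15.5 CPM (library 18), 10.8 (library 22) and 10.3 (library 20), against 9.81 (library 14), 7.04 (library 16) and 5.03 CPM (library 24) in the Agrp-poor libraries. In female CON-O the Agrp-rich libraries held 12.8 (library 8), 12.7 (library 6) and 10.6 CPM (library 10), against 9.41 (library 2), 8.86 (library 12) and 8.61 CPM (library 4) in the Agrp-poor ones. In these groups the 95% counting intervals of the third and the fourth library overlapped: they were 7.90 to 13.1 CPM for library 20 against 7.57 to 12.5 CPM for library 14 in female HFD-O, and 8.20 to 13.4 CPM for library 10 against 7.16 to 12.1 CPM for library 2 in female CON-O.

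In male HFD-O the Agrp-rich libraries held 13.3 (library 23), 12.0 (library 19) and 9.12 CPM (library 21), against 9.11 (library 17), 7.78 (library 13) and 7.42 CPM (library 15) in the Agrp-poor ones. In male CON-O the Agrp-rich libraries held 12.9 (library 5), 10.8 (library 9) and 9.79 CPM (library 3), against 9.55 (library 7), 8.46 (library 1) and 0.295 CPM (library 11) in the Agrp-poor ones. The values just inside and just outside the Agrp-rich class thus differed little, by least in male HFD-O, where 9.12 CPM (64 counts, 7.02 to 11.7) lay inside and 9.11 CPM (66 counts, 7.04 to 11.6) outside. Male CON-O 11 stood apart from every other library, with 2 *Agrp* counts (95% exact Poisson interval 0.0357 to 1.06 CPM). Intervals cover counting error only.

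Over the classes, *Agrp* averaged 11.7 ± 1.81 CPM in the 12 Agrp-rich libraries (63 to 108 counts) and 7.61 ± 2.66 CPM in the 12 Agrp-poor libraries (2 to 70 counts, SD). Without male CON-O 11 the Agrp-poor mean was 8.28 ± 1.39 CPM (SD, n = 11). The male CON-O spread rested on library 11. The SD over the 6 libraries of a group was 3.58 CPM in female HFD-O, 1.87 in female CON-O, 2.35 in male HFD-O and 4.35 in male CON-O (1.68 without library 11), where counting alone would give 1.202, 1.258, 1.165 and 1.097 CPM in the same order of groups.

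**Figure D1:**
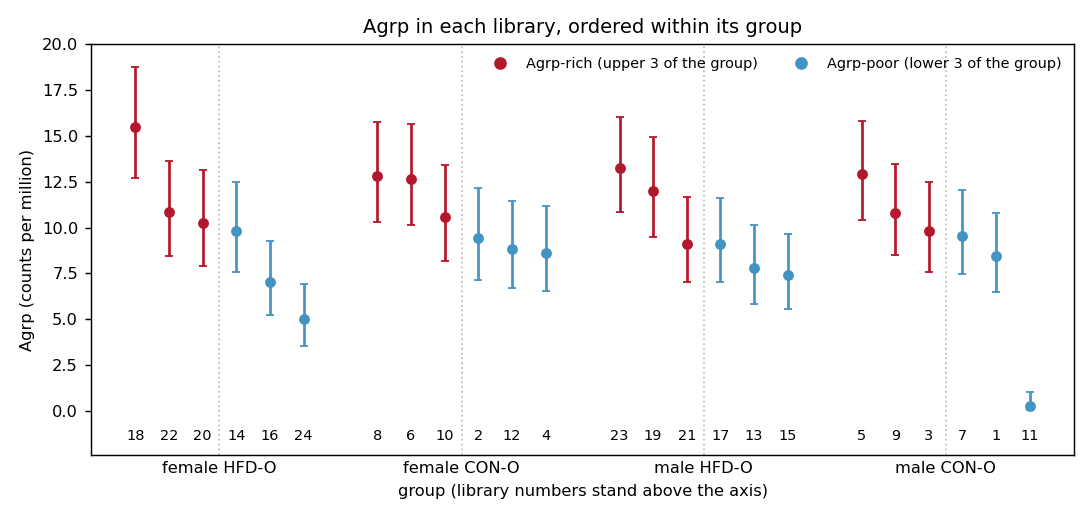
*Agrp* in CPM (vertical axis) in each of the 24 libraries, ordered by level within its group, with library numbers above the horizontal axis. Red points are Agrp-rich and blue points Agrp-poor libraries, bars are 95% exact Poisson intervals, and dotted lines mark the divide. Levels fell in small steps across the divide in all 4 groups, and male CON-O 11 lay at 0.295 CPM.

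Maternal diet, which the ranking within groups did not use, left *Agrp* within the spread between pups. *Agrp* averaged 9.75 ± 3.58 CPM in female HFD-O and 10.5 ± 1.87 CPM in female CON-O (SD, n = 6 each), a log2 fold change of -0.12 (SE 0.206, adjusted p = 0.922 by edgeR's quasi-likelihood test over 11388 genes). In males it averaged 9.78 ± 2.35 CPM in HFD-O and 8.63 ± 4.35 CPM in CON-O, a log2 fold change of 0.17 (SE 0.357, edgeR adjusted p = 0.989 over 11455 genes). The sign in males rested on 1 library: without male CON-O 11 the CON-O mean was 10.3 ± 1.68 CPM and the log2 fold change -0.08 (edgeR adjusted p = 0.943). The sign in females changed to 0.02 without female HFD-O 24 (edgeR adjusted p = 0.977). With all libraries, the fits by maternal diet called 0 genes in females and 0 in males. The paper's own edgeR analysis called genes in both sexes, so a high adjusted p here is not evidence of no difference.

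Library totals, which enter the CPM used for the ranking and are given without a test, overlapped between the classes. They ran from 6132112 to 7994399 counts (median 6908607.5) in Agrp-rich libraries and from 6272623 to 7567018 counts (median 7085536) in Agrp-poor libraries. Of the 12 pairs of libraries with consecutive numbers, 4 had both libraries Agrp-rich, 4 had both Agrp-poor and 4 had 1 of each.

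No gene passed the test between Agrp-rich and Agrp-poor libraries. With edgeR's quasi-likelihood test, the 4 groups as covariate and Benjamini-Hochberg adjustment, 0 of 11679 genes had an adjusted p under 0.05 (0%), and the smallest adjusted p was 0.9999. An unadjusted p under 0.05 was found for 258 genes, 126 higher (1.08%) and 132 lower (1.13%) in Agrp-rich libraries. These shares together lie below the share of 0.05 that such a threshold passes on average when no gene differs. DESeq2, limma-voom and edgeR's likelihood ratio test also called 0 genes, with 193, 256 and 232 genes at an unadjusted p under 0.05. Without male CON-O 11, 0 of 11729 genes were called by edgeR and 299 had an unadjusted p under 0.05. The median log2 fold change over all genes tested was -0.001.

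No arcuate peptide passed the test between the classes, and their differences were not of 1 kind: *Npy*, *Pomc*, *Ghrh* and *Kiss1* had log2 fold changes of 0.26 to 0.36, while *Cartpt*, *Tac3* and *Sst* lay between -0.04 and 0.09. *Npy*, the peptide made in the same neurons, ranged from 34.5 to 59.3 CPM (median 45.7) in Agrp-rich libraries, against 20.2 to 53.0 CPM (median 39.4) in Agrp-poor libraries. The classes overlapped over most of their range, and separated fully only in female CON-O. *Npy* averaged 45.4 ± 6.83 CPM in Agrp-rich and 37.9 ± 8.14 CPM in Agrp-poor libraries (SD, n = 12 each), a log2 fold change of 0.26 (SE 0.099, unadjusted p = 0.0152, edgeR). Its Agrp-rich mean was above its Agrp-poor mean in 4 of 4 groups, at 45.4 against 38.1 CPM in female HFD-O, 50.5 against 41.1 in female CON-O, 41.2 against 39.7 in male HFD-O and 44.3 against 32.8 CPM in male CON-O. Without male CON-O 11 the log2 fold change was 0.20 (unadjusted p = 0.0240, edgeR).

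*Tcf7l2* and *Ntng1*, picked here as markers of neighbouring tissue, also separated in female CON-O, the group in which *Npy* and *Pomc* did. *Tcf7l2*, a transcription factor of the thalamus, averaged 54.1 CPM in the 3 Agrp-rich and 194 CPM in the 3 Agrp-poor female CON-O libraries, and *Ntng1*, a thalamic marker, 73.7 CPM in Agrp-rich and 111 CPM in Agrp-poor ones, without overlap in either gene. *Slc6a3*, the dopamine transporter, averaged 4.84 CPM in Agrp-rich and 19.8 CPM in Agrp-poor female CON-O libraries, with overlap. Other genes of the thalamic list overlapped in female CON-O, among them *Cbln1* (249.7 CPM in Agrp-rich and 260.9 CPM in Agrp-poor libraries) and *Plekhg1* (10.56 and 11.64 CPM). Genes outside that list, among them *Fggy* and *Cox7c*, also separated without overlap there. The share of all genes that did so was not counted, and with 3 libraries against 3 some genes separate by chance. In the other 3 groups *Tcf7l2* and *Ntng1* overlapped between the classes. The part of these markers in the *Npy* and *Pomc* separation within female CON-O was not tested.

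*Pomc* ranged from 20.8 to 33.5 CPM (median 27.5) in Agrp-rich libraries, against 5.31 to 34.9 CPM (median 24.3) in Agrp-poor libraries. Its highest value of all, 34.9 CPM in female HFD-O 14, lay in an Agrp-poor library, and its lowest was male CON-O 11. The log2 fold change was 0.29 (SE 0.14, unadjusted p = 0.0508, edgeR) and 0.20 without male CON-O 11 (unadjusted p = 0.0574). *Cartpt*, which encodes the peptide precursor CART found with *Pomc* in the arcuate nucleus, averaged 71.6 ± 10.6 CPM in Agrp-rich and 67.2 ± 14.0 CPM in Agrp-poor libraries, a log2 fold change of 0.09 (unadjusted p = 0.363).

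*Ghrh*, growth hormone releasing hormone, ranged from 2.61 to 8.04 CPM (median 4.36) in Agrp-rich libraries and from 1.33 to 5.12 CPM (median 3.50) in Agrp-poor libraries (log2 fold change 0.36, SE 0.18, unadjusted p = 0.0544, edgeR). The 3 Agrp-rich male CON-O libraries lay above the 3 Agrp-poor ones, and the classes overlapped in the other 3 groups. *Kiss1*, the kisspeptin precursor that acts on neurons of the reproductive axis, had its highest group means in female CON-O in both classes (mean 3.79 CPM in Agrp-rich and 2.53 CPM in Agrp-poor libraries). Its log2 fold change over all groups was 0.35 (SE 0.20, unadjusted p = 0.0997, edgeR), with the opposite order in male HFD-O (0.973 CPM in Agrp-rich and 1.34 CPM in Agrp-poor libraries).

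*Tac3* and *Sst*, which encode neurokinin B and somatostatin, lay near 0, at log2 fold changes of 0.00 and -0.04 (unadjusted p = 0.975 and 0.416, edgeR). Of 17 arcuate peptide and amine enzyme genes tested, 13 were above 0 and 4 below, where 49.38% of all genes were above 0. Their median was 0.05 against -0.001 for all genes, and 0 passed the test. The members below 0 were *Sst* and 3 genes of dopamine handling (*Th*, *Slc6a3* and *Ddc*).

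**Figure D2:**
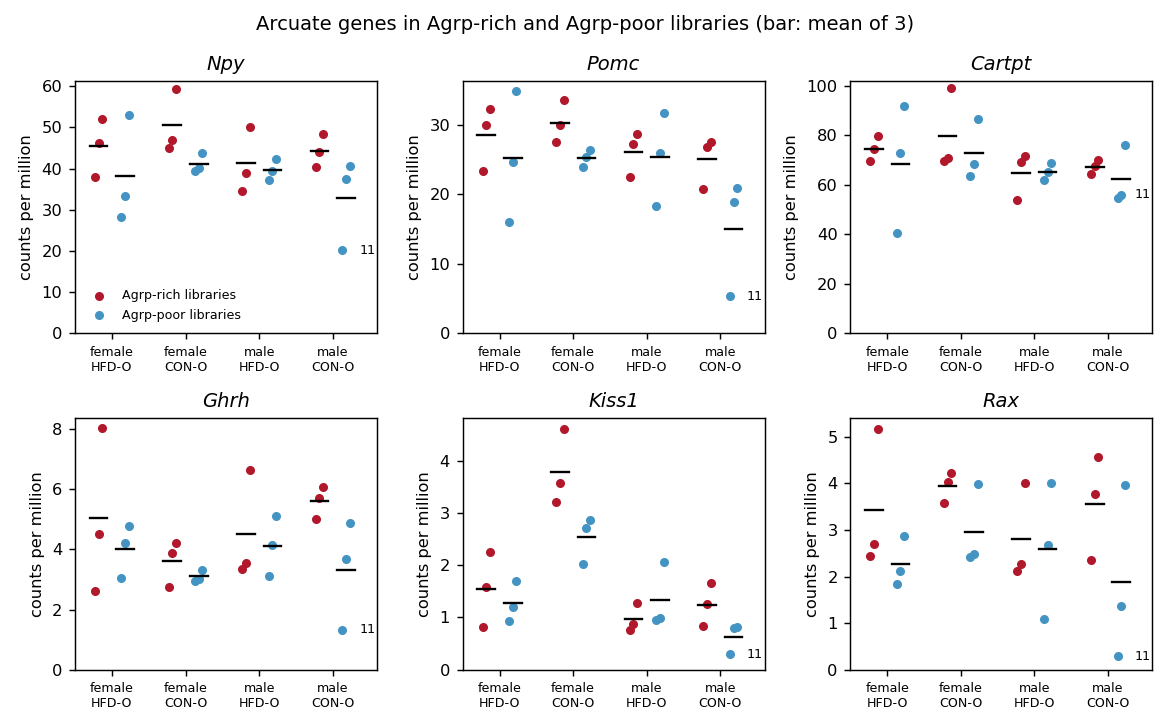
*Npy*, *Pomc*, *Cartpt*, *Ghrh*, *Kiss1* and *Rax* in CPM (vertical axes) in each library, by group (horizontal axes). Red points are Agrp-rich and blue points Agrp-poor libraries, black bars are means of 3 libraries, and 11 marks male CON-O 11. For *Npy* and *Pomc* the Agrp-rich mean was the higher in 4 of 4 groups while single libraries overlapped, except in female CON-O.

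Receptors and regulators of these neurons showed no common direction. The leptin receptor *Lepr* averaged 2.89 ± 1.76 CPM in Agrp-rich and 2.91 ± 1.42 CPM in Agrp-poor libraries (log2 fold change -0.01, SE 0.28, unadjusted p = 0.958, edgeR). The ghrelin receptor *Ghsr* averaged 2.55 ± 1.06 CPM in Agrp-rich and 2.61 ± 0.672 CPM in Agrp-poor libraries (log2 fold change -0.04, SE 0.19). At such counts the SE leaves room for changes of either sign. The melanocortin receptor *Mc3r* (log2 fold change 0.11, unadjusted p = 0.409) and the transcription factors *Otp* (0.03, unadjusted p = 0.703) and *Isl1* (0.04, unadjusted p = 0.734) did not pass the test either.

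Of 45 genes in the list of receptors, regulators and secretory genes of these neurons, 26 were above 0 and 19 below (median 0.013, and 0.003 without male CON-O 11), and 0 passed. The smallest p-values belonged to *Crabp1*, a retinoic acid binding protein (22.3 ± 4.11 CPM in Agrp-rich and 19.2 ± 3.64 CPM in Agrp-poor libraries, log2 fold change 0.22, unadjusted p = 0.0355, edgeR), and to *Rax*, a homeodomain factor of tanycytes, the cells lining the floor of the third ventricle. *Rax* averaged 3.44 ± 1.02 CPM in Agrp-rich and 2.42 ± 1.19 CPM in Agrp-poor libraries (log2 fold change 0.50, SE 0.24, unadjusted p = 0.0434, edgeR). Without male CON-O 11 these log2 fold changes were 0.19 and 0.39, with unadjusted p = 0.0653 and 0.0651. *Rax* is counted again on the tanycyte list below. Among 8 genes for melanocortin and NPY targets, *Npy1r*, a receptor for neuropeptide Y, had the smallest p (log2 fold change 0.12, unadjusted p = 0.101).

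Using the *Agrp* level itself in place of the 2 classes gave a different count, set largely by 1 library. When log2 *Agrp* CPM, centred within each group, replaced the classes, edgeR called 29 of 11892 genes (0.244%), 26 with a positive and 3 with a negative slope, and 1312 genes had an unadjusted p under 0.05. Male CON-O 11 was the lowest of 24 libraries in all 26 genes with a positive slope and the highest of 24 in the 3 with a negative slope (*Lbh*, *Tsc2* and *Lyn*). The 26 included *Pomc* (slope 0.43, adjusted p = 0.000101), *Npy* (0.24, adjusted p = 0.00199), *Ghrh* (0.41, adjusted p = 0.0382), *Rax* (0.70, adjusted p = 0.0240), and the transcription factors *Nkx2-1*, *Tbx3* and *Bsx*. A slope is the change in log2 level of the gene for 1 log2 unit of *Agrp*. Without male CON-O 11, edgeR called 1 of 11812 genes (0.00847%), and 452 had an unadjusted p under 0.05. This fit and its alternatives were added after the libraries had been seen.

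The gene called without that library was *Npy*, with a slope of 0.53 (SE 0.0862, unadjusted p = 2.31e-06, adjusted p = 0.0273, edgeR's quasi-likelihood test). Female HFD-O 18, the highest in *Agrp*, held 52.0 CPM of *Npy*, and female HFD-O 24, the lowest of the 23, held 28.2 CPM. The order was not strict, since Agrp-poor female HFD-O 14 held 53.0 CPM of *Npy*, more than library 18. *Npy* had a positive slope in female libraries (0.58, unadjusted p = 0.000112), male libraries (0.41, unadjusted p = 0.00654), HFD-O libraries (0.50) and CON-O libraries (0.63), and whether these slopes differed was not tested. *Pomc* had a slope of 0.53 (SE 0.122, unadjusted p = 0.00019, adjusted p = 0.766), *Ghrh* one of 0.56 (SE 0.206, unadjusted p = 0.0113) and *Rax* one of 0.77 (SE 0.277, unadjusted p = 0.0104, edgeR), none of which passed the adjusted threshold.

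The call for *Npy* was close to its threshold. DESeq2, limma-voom and the likelihood ratio test each called it over the 23 libraries (adjusted p = 9.07e-05, 0.0293 and 8.37e-05), and the likelihood ratio test called *Mis18a* as well. Leaving out 1 further library in turn, edgeR kept the call for *Npy* in 13 of 23 cases, with slopes from 0.48 to 0.56. The adjusted p was 0.0512 without female CON-O 4, 0.0567 without female CON-O 8, 0.112 without female HFD-O 16 and 0.135 without female HFD-O 18. It was 0.0501 without female HFD-O 22, 0.350 without female HFD-O 24, 0.0558 without male CON-O 1, 0.0734 without male CON-O 5, 0.0509 without male HFD-O 13 and 0.128 without male HFD-O 23. In the 23 fits with 1 further library left out, the unadjusted p of *Npy* was at most 0.0001032 (edgeR). Without both female HFD-O 18 and female HFD-O 24 the slope was 0.52 (SE 0.122, unadjusted p = 0.000312, adjusted p = 0.978, edgeR). *Npy* and *Agrp* were counted in the same libraries and scaled by the same totals, and the counting error of *Agrp* was not part of the fit.

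**Figure D3:**
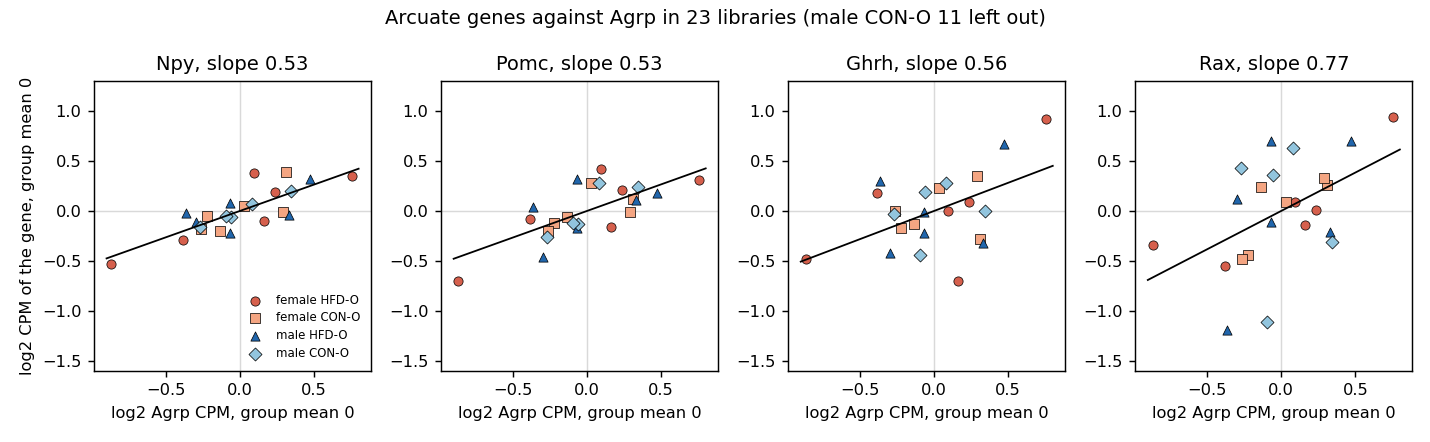
Log2 CPM of *Npy*, *Pomc*, *Ghrh* and *Rax* (vertical axes) against log2 CPM of *Agrp* (horizontal axes) in 23 libraries, male CON-O 11 left out, each value with the mean of its group set to 0. Lines are the fitted slopes of 0.53, 0.53, 0.56 and 0.77, and the points lie closest to the line for *Npy*.

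The difference between the classes was not found to vary by sex or by maternal diet in any gene. The fit for a difference between the sexes (female minus male) called 0 of 11737 genes (smallest adjusted p = 0.947, for *Nexn*), with 531 genes at an unadjusted p under 0.05 by edgeR, 448 by DESeq2 and 458 by the likelihood ratio test, both of which also called 0. The fit for a difference between the diets (HFD-O minus CON-O) called 0 (smallest adjusted p = 0.747, for *Igfbp4*), with 719 genes at an unadjusted p under 0.05 by edgeR, 640 by DESeq2 and 661 by the likelihood ratio test, which called 0 too. For *Npy* the difference was 0.03 (SE 0.202) between the sexes and -0.19 (SE 0.198) between the diets.

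The other regions of the tissue block gave small medians. Of all genes tested, 49.38% were above 0. Genes of a list were measured in the same libraries, so their counts are not independent results. Tanycyte genes were above 0 in 14 of 16 cases, with a median log2 fold change of 0.09 (0.06 without male CON-O 11), and 0 passed the test. *Lhx2*, a developmental transcription factor on that list, averaged 17.7 ± 2.76 CPM in Agrp-rich and 15.6 ± 2.65 CPM in Agrp-poor libraries (log2 fold change 0.18, unadjusted p = 0.0598, edgeR). Paraventricular and supraoptic genes were above 0 in 9 of 11 cases (median 0.05), led by *Sim1*, a transcription factor of those nuclei (28.02 ± 2.47 CPM in Agrp-rich and 25.6 ± 2.80 CPM in Agrp-poor libraries, log2 fold change 0.13, unadjusted p = 0.0348). Medians moved with male CON-O 11 in other nuclei: they were 0.036 with and 0.005 without it for the ventromedial nucleus, 0.027 and 0.05 for the lateral area, and -0.104 and -0.048 for the dorsomedial nucleus.

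Tissue beside the hypothalamus and other cell types overlapped between the classes. Midbrain dopamine genes were below 0 in 9 of 10 cases (median -0.11), with a summed level of 235.7 to 702.4 CPM (median 280.4) in Agrp-rich and 256.8 to 655.9 CPM (median 306.7) in Agrp-poor libraries. Erythroid genes had the largest median among the 31 lists (0.41, 8 of 10 above 0), at 764.1 to 6473 CPM (median 1599) in Agrp-rich and 898.3 to 3859 CPM (median 1295) in Agrp-poor libraries. Leptomeningeal genes were below 0 in 15 of 21 cases (median -0.074, and -0.112 without male CON-O 11), at 203.4 to 1716 CPM (median 387.2) in Agrp-rich and 212.4 to 1149 CPM (median 613.0) in Agrp-poor libraries. Genes of myelinating oligodendrocytes had a median of -0.14 with male CON-O 11 and -0.01 without it. None of these genes passed the test. With a score for erythroid, midbrain, telencephalon or thalamus genes added to the fit over 23 libraries, the slope of *Npy* was 0.51, 0.52, 0.49 and 0.47 (adjusted p = 0.0546, 0.0539, 0.0510 and 0.0893, edgeR). The unadjusted p was 4.6e-06, 4.5e-06, 4.3e-06 and 1.5e-05 in the same order (edgeR). With a leptomeningeal or myelin score the slope was 0.52 and 0.54 (adjusted p = 0.0312 and 0.0267).

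**Figure D4:**
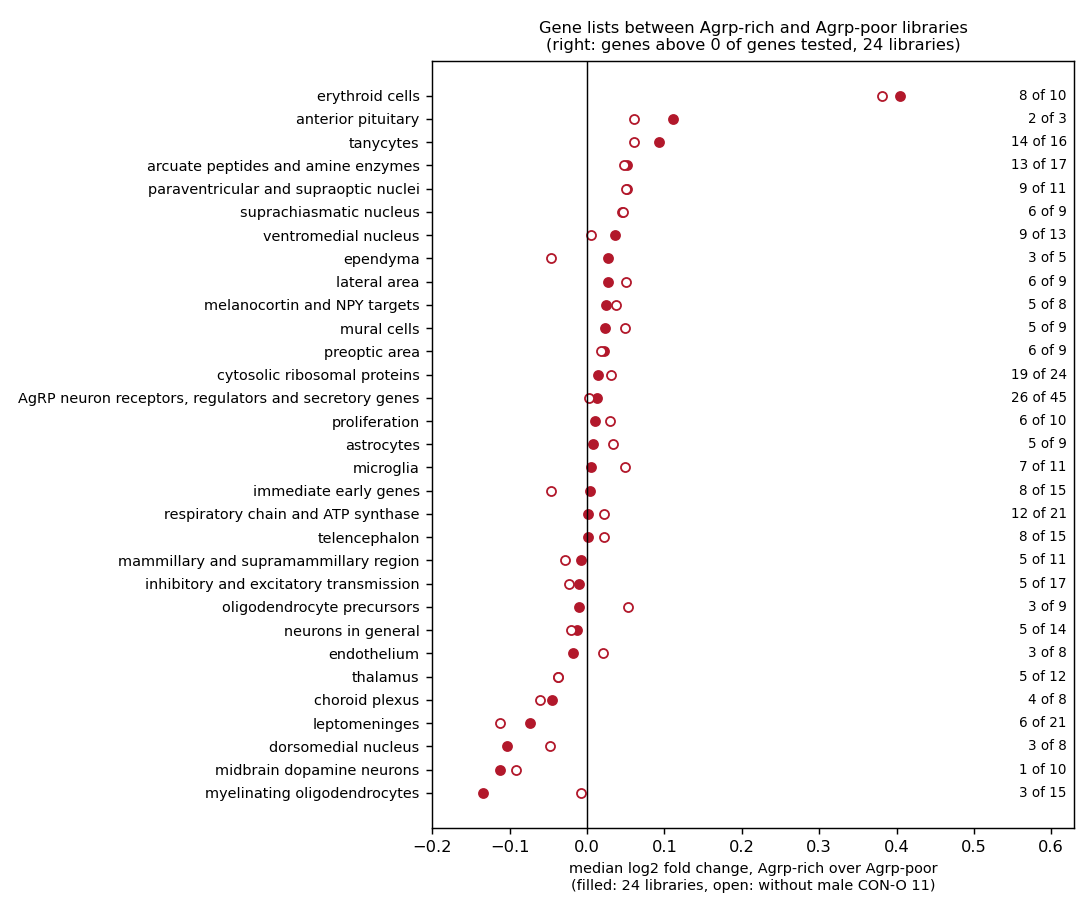
Median log2 fold change of Agrp-rich over Agrp-poor libraries (horizontal axis) for each of 31 gene lists, with all 24 libraries (filled) and without male CON-O 11 (open), and the number of tested genes above 0 at the right. Arcuate peptides had a median of 0.05 and erythroid genes one of 0.41, and no gene of any list passed the test.

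Single genes that mark other differences between these libraries were also not called. *Hbb*, a globin of red blood cells, averaged 654 ± 652 CPM in Agrp-rich and 435 ± 284 CPM in Agrp-poor libraries, and *Slc6a3* 20.5 ± 36.2 CPM in Agrp-rich and 23.02 ± 26.98 CPM in Agrp-poor libraries. *Slc6a13*, a transporter of the leptomeninges, averaged 14.3 ± 15.4 CPM in Agrp-rich and 14.0 ± 10.2 CPM in Agrp-poor libraries. Over all groups *Tcf7l2* averaged 120.0 ± 73.3 CPM in Agrp-rich and 138 ± 77.8 CPM in Agrp-poor libraries. The hypothalamic genes *Hcrt* (orexin; log2 fold change -0.04), *Avp* (vasopressin; 0.08) and *Nr5a1* (a factor of the ventromedial nucleus; 0.08) lay near 0. *Fos*, an immediate early gene, had a log2 fold change of -0.22 (unadjusted p = 0.0802, edgeR), and -0.27 without male CON-O 11 (unadjusted p = 0.0297), and *Mbp*, a myelin protein, -0.19 with that library and 0.01 without it.

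The genes with the smallest p-values included no arcuate peptide gene, and all stayed short of the adjusted threshold. *Fam63a* was the first among those higher in Agrp-rich libraries (14.4 to 19.8 CPM, median 16.4, against 11.5 to 17.2 CPM, median 13.7, in Agrp-poor libraries; log2 fold change 0.25, SE 0.0677, unadjusted p = 0.00105, edgeR). It was followed by *LOC500300*, *Lzts2*, *Fggy*, *Pik3r4*, *Wbscr27*, *Snrpe*, *Tmem69*, *Mrps17*, *Txndc9*, *RGD1309139* and *Spn*, with log2 fold changes from 0.09 for *Pik3r4*, a regulatory subunit of the class III phosphoinositide 3-kinase, to 0.87 for *LOC500300*. *Vsig8* was the first among those lower in Agrp-rich libraries (0.250 to 1.05 CPM, median 0.739, against 0.397 to 2.87 CPM, median 1.32, in Agrp-poor libraries; log2 fold change -1.04, SE 0.262, unadjusted p = 0.000565, edgeR). After it came *Tmtc4*, *RT1-O1*, *Arhgap4*, *Dzip1l*, *Mis18a*, *C1qtnf1*, *Spag4*, *Dph5*, *Dok1*, *Ltk* and *Ptpn2*, with log2 fold changes from -0.15 for *Dzip1l* to -1.06 for *Mis18a*. Several of these, among them *Vsig8*, *LOC500300* and *Snrpe*, averaged under 2 CPM.

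Male CON-O 11, lowest or highest in every gene called by the 24-library slope, differed from the rest in more than *Agrp*. It was the lowest of 24 libraries in 1169 of 11679 genes (10.0%) and the highest in 741 (6.34%), where the other 23 libraries were lowest in 2.06 to 7.72% and highest in 1.95 to 8.54% of genes. Its total of 6783970 counts lay inside the range of the others. In the list of arcuate peptides and amine enzymes, 5 of 17 genes were the lowest of 24 and 1 the highest. Their median log2 ratio to the median of the other libraries was -0.23. Their sum of 908.2 CPM lay inside the 823.2 to 1248 CPM of the others. Of the 45 genes for receptors, regulators and secretion, 9 were the lowest and 5 the highest. The low genes named next were picked for being low. *Pomc* had 36 counts (5.31 CPM against 16.0 to 34.9 CPM in the other 23), *Npy* 20.2 CPM against 28.2 to 59.3 CPM, *Ghrh* 1.33 CPM against 2.61 to 8.04 CPM and *Rax* 2 counts (0.295 CPM against 1.08 to 5.17 CPM). The transcription factor *Nkx2-1*, which patterns the ventral hypothalamus, had 26.1 CPM against 38.5 to 101 CPM, and *Hdc*, the histamine-making enzyme of tuberomammillary neurons, 8.11 CPM against 33.5 to 78.5 CPM. *Foxb1*, a mammillary factor, had 6.63 CPM against 17.1 to 56.0 CPM. *Cartpt* (56.0 CPM), *Tac3* (14.0 CPM) and *Sst* (224 CPM) were inside the range of the other libraries, the last 2 above their medians of 13.1 and 192 CPM.

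Other genes were high in male CON-O 11. Of 15 myelinating oligodendrocyte genes it was the highest of 24 in 11, with *Mbp* at 1687 CPM against 411.9 to 1298 CPM in the others. The list summed to 4133 CPM against 1380 to 3422 CPM. Male CON-O 11 was also the highest in 6 of 9 oligodendrocyte precursor, 4 of 9 astrocyte, 4 of 11 microglial and 3 of 9 mural cell genes. Among endothelial genes it was the highest in 0 of 8. *Gnrh1*, which encodes a peptide of preoptic neurons and was picked for being high, had 6.34 CPM against 0.283 to 5.78 CPM. Of 9 preoptic genes 2 were the highest and 1 the lowest of 24, and their sum of 505.6 CPM lay inside the 401.9 to 592 CPM of the others. The ependymal genes were the lowest of 24 in 5 of 5 cases. Summed levels also lay below those of all others for tanycyte (514.2 against 547.5 to 896.5 CPM) and ventromedial genes (1092 against 1219 to 1426 CPM). The same held for mammillary (246.3 against 279.7 to 438.4 CPM) and immediate early genes (149.3 against 172.8 to 271.7 CPM). Sums of the dorsomedial, lateral and paraventricular lists lay inside the range of the others. Leptomeningeal genes were the lowest in 2 of 21, and their sum of 236.4 CPM lay inside the 203.4 to 1716 CPM of the others. The leptomeningeal gene *Slc6a13* had class means of 17.3 to 24.8 CPM in HFD-O and 4.28 to 11.2 CPM in CON-O groups, so the median of the other 23 libraries mixes levels that differ by diet label. These values describe 1 library and have no replicate check.

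**Figure D5:**
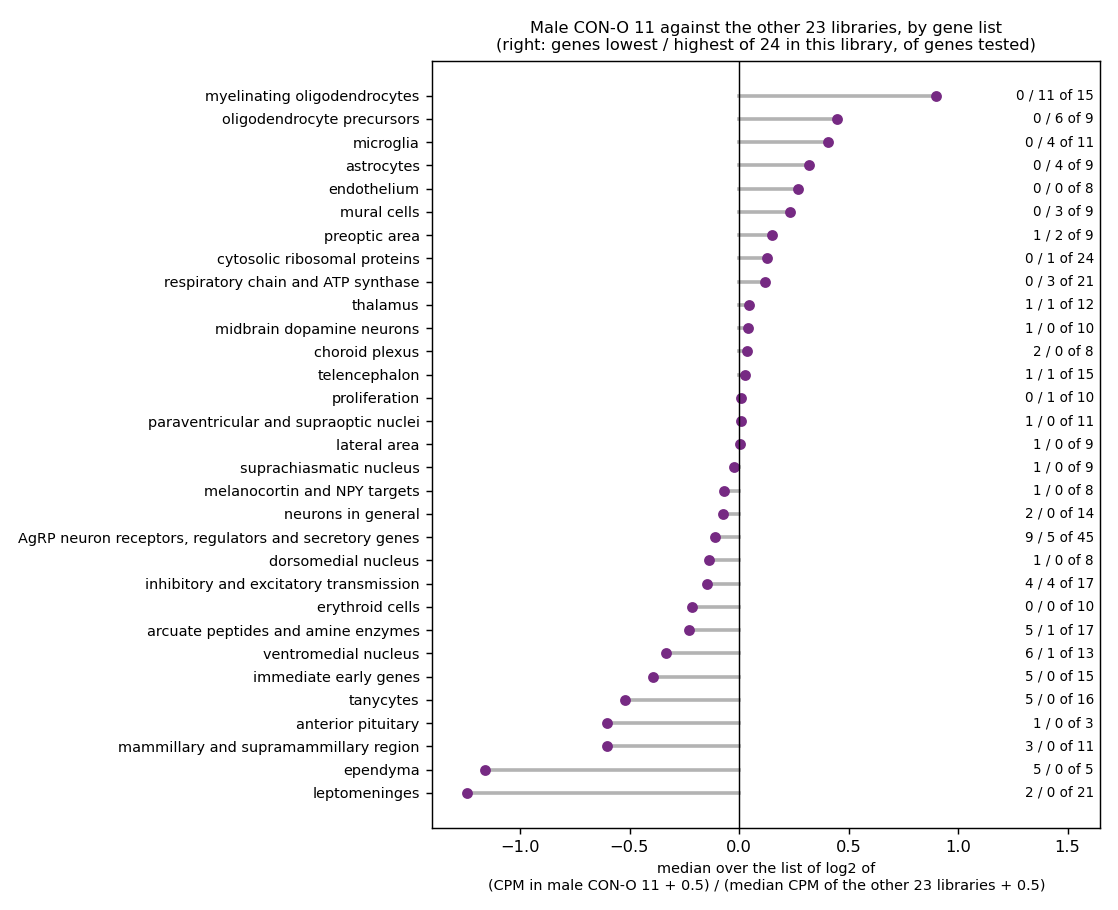
Male CON-O 11 against the median of the other 23 libraries, as the median over each gene list of the log2 ratio of CPM + 0.5 (horizontal axis). The numbers at the right give how many genes of the list were lowest and highest of 24 libraries in it. Myelinating oligodendrocyte genes lay highest (0.90, with 11 of 15 genes the highest of 24), and ependymal genes (-1.16) and leptomeningeal genes (-1.24, with 2 of 21 genes the lowest of 24) lowest.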

How the data were processed

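Total RNA of whole hypothalamus from 24 rat pups was sequenced (TruSeq library kit, Illumina HiSeq). The authors describe FastQC, Trimmomatic, Bowtie2 and edgeR, and the submitters' notes list FastQC, TopHat, edgeR and build rn6. No source used here names the counting program, annotation or strand setting, so reads of overlapping or antisense genes cannot be told apart. The authors deposited 1 table per sex with whole-number counts per gene, used here as deposited. A further 24 columns of per-library values in another unit were not used, nor were the authors' fold changes and p-values. Entries with a date in place of a gene name (23 in the female and 24 in the male table) were left out of the tests but count in the library totals. The tables had 13841 genes in common, of which 11680 passed the filter and 11679, all but *Agrp*, were tested.

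The members and gene lists were chosen with earlier results of these data known. Genes named are the 12 with the smallest p in each direction, 12 arcuate genes whether called or not, up to 3 from every other list, and 9 that mark other differences between libraries. The other genes of the *Agrp* slopes, those of male CON-O 11, *Igfbp4* and *Nexn* were named after their values were seen. The tests ran in R 4.3.3 using edgeR 4.0.16 (filterByExpr with minimum count 10 and minimum total 15, TMM factors 0.978 to 1.02, biological coefficient of variation 0.1), limma 3.58.1 and DESeq2 1.42.0. Sequences and figures used Python 3.11.15 and matplotlib 3.10.9. Calls were made at adjusted p under 0.05 over all genes tested. The fits were also run on simulated counts with independent genes and no outlying library. That run does not show which differences these data could have detected. Alternatives were other tests, normalizations, filters, subsets, pairs of consecutive library numbers, marker scores (mean log2 of CPM + 1) and each library left out. Library totals of 6132112 to 7994399 counts limit the precision for low genes.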

Additional observations from a re-analysis of the deposited data

Results flagged for a closer look

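Of 60 sets of 6 libraries examined (15 arcuate and related genes, each in 4 groups), 1 had a library whose gap to the nearest other exceeded Dixon's 95% critical value for 6 values. Chance alone marks about 1 set in 20. In female HFD-O, *Rax* in library 18 (Agrp-rich, and the library with the most *Agrp*) was 5.17 CPM against 1.83 to 2.87 CPM in the other 5, a gap of 0.69 of the range.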

How the results depend on the processing

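The count of genes called between Agrp-rich and Agrp-poor libraries stayed at 0 under every other test, normalization, filter, subset and covariate tried except the continuous *Agrp* level, which called 29, and was 0 to 0 with each of the 24 libraries left out in turn (218 to 324 genes at an unadjusted p under 0.05). Taking the consecutive library numbers as 12 pairs in a block called 0 genes (341 at an unadjusted p under 0.05). No other paired analysis was possible because library numbers were not shared between groups. Both counts of differences by sex and by diet were 0 to 0 with each library left out.

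*Agrp* by maternal diet ran from -0.30 to 0.02 (log2) in females with each library left out, changing sign without female HFD-O 24 (0.019), and from -0.08 to 0.32 in males, changing sign without male CON-O 11 (-0.077). Other tests, normalizations and filters gave -0.122 to -0.116 in females and 0.166 to 0.174 in males.

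For the slope without male CON-O 11, where edgeR called 1 gene, the count was 29 with all 24 libraries, 2 with the likelihood ratio test, 2 with the pairs of library numbers as a block (*Npy*, 0.63, and *LOC680227*) and 0 in female, male, CON-O or HFD-O libraries only, without the highest and lowest library, and with an erythroid, midbrain, telencephalon or thalamus score. It was 0 to 1 with each library left out. The slope of *Npy* was no longer called at 0.581 in female, 0.406 in male, 0.629 in CON-O and 0.501 in HFD-O libraries, 0.52 without the highest and lowest library, and 0.512, 0.518, 0.488 and 0.468 with the erythroid, midbrain, telencephalon and thalamus scores. It ran from 0.483 to 0.563 with each library left out. The subsets have fewer libraries, and for the scores the cause was not tested.

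No named gene was called between the classes, so a value could keep its call only by staying uncalled, and the tally measures no robustness. Of 6332 alternative values for 148 named genes, 6296 were counted as keeping their call. They include changes of sign where the unadjusted p was not under 0.05 in either fit. *Lepr*, for example, had a log2 fold change of -0.014 and ran from -0.39 to 0.45 over the alternatives other than libraries left out. Another 29 values were called only by the continuous level, and genes had been named because that level called them. A further 7 changed sign with an unadjusted p under 0.05 in either fit. With the continuous level these were *Tmem69* (-0.006), *RT1-O1* (0.044), *Drd1* (0.037), *Neu4* (-0.107) and *Slc1a3* (-0.058). The same slope without male CON-O 11 had the sign of the class difference in all 5 (0.19, -0.67, -0.32, 0.07 and 0.14). With the pairs of library numbers *Fezf2* (-0.075) and *Rps18* (0.026) changed sign, and the cause was not tested. *Agrp* had 2 to 108 counts a library, so the place of a library near the divide is within counting error.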
